A study of Arabidopsis thaliana with 12 samples.

Results

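IAA29 (locus AT4G32280) and WES1 (locus AT4G27260) are a pair of auxin-responsive genes of Arabidopsis thaliana, chosen because both were lower in each of the altered lines than in wild type, by different amounts. They are 2 of 13356 genes with a probe set of their own in the annotation. Each had 1 probe set, so 2 of 22746 tested probe sets are described, and no other probe set was annotated to either gene. They were chosen by their log2 differences of each line against its wild type and by the inequality of those differences, so these values are given as a description, without a test.

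RNA came from green tissue of 3-week-old soil-grown seedlings on 12 single-colour Affymetrix arrays, with 3 biological replicates in each of 4 groups, all in the Col-0 background. A line with an RNA interference (RNAi) construct against CHLD and unaltered Col-0 both received 20 µg/ml dexamethasone, the steroid that switches the construct on. A line that overexpresses CHLM and a separate Col-0 group both received 20 µM β-estradiol, the inducer of that transgene. Plants were grown with 10 h of light and 14 h of darkness at 23°C. The promoters, the number of independent lines and the time from spraying to harvest are not given in the sources used here, and no line without its inducer was analysed here, so an effect of carrying the transgene and an effect of inducing it cannot be told apart.

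Auxin acts by bringing Aux/IAA proteins to receptor F-box proteins of the TIR1/AFB group, which mark them for destruction. Aux/IAA proteins, of which IAA29 is one, hold back the auxin response factors, and many of their genes are themselves switched on by auxin, which closes a feedback loop. IAA29 is also known as a target of the phytochrome-interacting factors, which act in shade, warmth and darkness. WES1, also named GH3.5, belongs to the GH3 enzymes that join auxin to amino acids and so lower the level of the free hormone. It is induced by auxin, and the enzyme can also act on salicylic acid. The lines were altered in neighbouring steps of chlorophyll synthesis. CHLD belongs to magnesium chelatase, the enzyme that commits protoporphyrin IX to chlorophyll, and CHLM methylates the magnesium porphyrin so formed.

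The values were log2 signals, in which a difference of 1 is a doubling, and array medians lay between 6.26 and 6.31. The overexpressed gene CHLM was at 13.96 to 14.48 in its line and at 11.68 to 11.72 in Col-0 under estradiol, and CHLD was not analysed here. In the estradiol Col-0 group replicate 1 differed from the rest, with a correlation of 0.99 to each of the other arrays of its group across probe sets. The other groups had correlations of 0.994 to 0.997. Of 7 measured markers of green tissue, LHCB4.2, PSBW, PRK and SBPASE were bright on every array, between 11.58 and 13.96. The plastid genes rbcL and psbA were at 9.04 to 9.96 and 9.51 to 10.63, and LHCB4.3 was at 6.34 to 7.0. Of 5 measured markers of other cell types, the root hair expansin gene EXPA7 was between 3.44 and 3.85. PYK10, a β-glucosidase gene of seedlings and roots, was at 11.39 or more on every array. The stomatal lineage genes FMA, SPCH and MUTE were at 5.79 to 6.4, 5.17 to 5.75 and 3.68 to 4.22.

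In wild type the levels of IAA29 under the inducers overlapped. Its log2 signal in Col-0 under dexamethasone was 7.14, 7.13 and 6.60 in replicates 1 to 3. In Col-0 under estradiol it was 7.10, 6.96 and 7.14. The low replicate 3 of the dexamethasone group gave that group the wider spread, with an SD of 0.31 against 0.09.

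In the CHLD RNAi line IAA29 was at 4.66, 4.68 and 5.11. All of these lay below the lowest Col-0 array of the same inducer, 6.60, and replicate 3 was the highest of the line. The mean of the line was 4.82 ± 0.25 against 6.96 ± 0.31 (SD, n = 3 each), a log2 difference of -2.14 (SE 0.154), which leaves 22.7% of the Col-0 signal on a linear scale. Each array set against the Col-0 mean gave 20.4%, 20.6% and 27.8%. Groups that do not overlap, with the line lower, were seen in 15.8% of all probe sets in this comparison. By size the fall ranked 14 among all 22746 probe sets. In whole tissue, fewer cells that express a gene and less of its RNA per cell cannot be told apart.

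In the CHLM overexpression line IAA29 was at 6.16, 5.83 and 6.05. These arrays too lay below every Col-0 array of their inducer, the lowest of which was 6.96, and they lay above every array of the CHLD RNAi line. The mean was 6.01 ± 0.17 against 7.07 ± 0.09 (SD, n = 3 each), a log2 difference of -1.05 (SE 0.154), which leaves 48.2% of the Col-0 signal. By array this was 53.3%, 42.4% and 49.4%. In this comparison 11.3% of all probe sets had groups without overlap and the line lower, and the fall of IAA29 ranked 152 by size. The share of all probe sets on which the lines do not overlap with each other was not counted. Without the array that stood apart, Col-0 estradiol replicate 1, the difference was -1.04 (SE 0.172).

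WES1 varied less between replicates than IAA29. In Col-0 under dexamethasone it was at 8.08, 8.18 and 8.17, and under estradiol at 7.90, 7.99 and 8.01. All 3 dexamethasone arrays were above all 3 estradiol arrays, by a gap of 0.07. The within-group SD over all groups was 0.0893, below the median of 0.134 over all probe sets, while that of IAA29 was 0.222.

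In the CHLD RNAi line WES1 was at 6.87, 6.99 and 7.15, all below the lowest Col-0 array of the same inducer, 8.08. The mean was 7.0 ± 0.14 against 8.14 ± 0.06 (SD, n = 3 each), a log2 difference of -1.14 (SE 0.090) that leaves 45.4% of the Col-0 signal. By array the share was 41.4%, 45% and 50.2%. The fall ranked 84 among all probe sets, of which 15.8% had groups without overlap and the line lower in this comparison. Replicate 3 of the line was the highest array for this gene as it was for IAA29.

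In the CHLM overexpression line WES1 was at 7.37, 7.43 and 7.28. These arrays lay between the CHLD RNAi arrays and the Col-0 arrays and overlapped with neither. The mean was 7.36 ± 0.08 against 7.97 ± 0.06 (SD, n = 3 each), a log2 difference of -0.61 (SE 0.090) that leaves 65.7% of the Col-0 signal. By array the share was 66.1%, 68.9% and 62.1%, and the fall ranked 501 by size. Against Col-0 under estradiol, 11.3% of all probe sets had no overlap and the line lower. No such share was counted for the lines against each other. Without Col-0 estradiol replicate 1 the difference was -0.64 (SE 0.103).

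**Figure D1:**
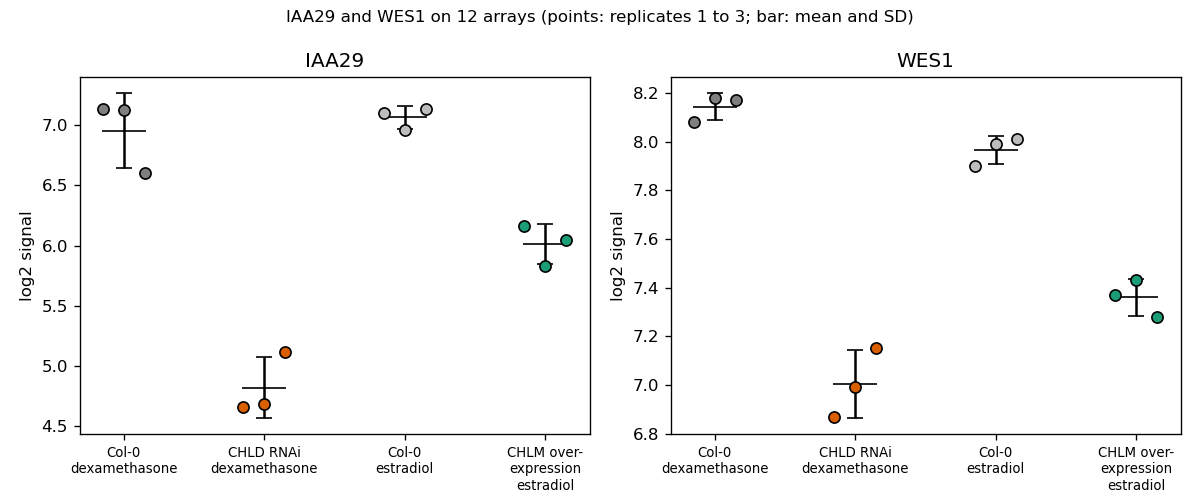
Log2 signal of IAA29 (left) and WES1 (right) in the 4 groups. Points are the 3 replicates in order, and the bar and whiskers are the mean and SD; the vertical axes differ in range and do not start at 0. In both panels the CHLD RNAi arrays are lowest, the CHLM overexpression arrays come next, and both Col-0 groups are highest.

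The order of the groups was therefore alike from the bottom up. For IAA29 it was CHLD RNAi, CHLM overexpression, Col-0 under dexamethasone and Col-0 under estradiol, and only the Col-0 groups, 0.11 apart in mean, overlapped. For WES1 the order of the Col-0 groups was the other way round, and no neighbours overlapped, with gaps of 0.13 between the lines and 0.47 between the CHLM line and its Col-0 group. How many of all probe sets keep the lines apart in this way was not counted. The lines received different inducers, so their levels differ in treatment as well as in transgene.

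The difference between the Col-0 groups enters the comparison of the falls, and with it the choice of the genes, so it too is given without a test. Dexamethasone minus estradiol, it was -0.11 (SE 0.154) for IAA29 and 0.18 (SE 0.090) for WES1 on the log2 scale. Over all probe sets, 8.12% had every dexamethasone array above every estradiol array, as WES1 had. Without Col-0 estradiol replicate 1 the difference of WES1 was 0.14 (SE 0.103).

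The falls kept a like proportion in the lines. The log2 difference in the CHLM line was 0.49 of that in the CHLD line for IAA29 and 0.53 for WES1. Against its own Col-0 mean, no array of the CHLM line reached the size of fall seen on any array of the CHLD line. The share of all probe sets with falls kept apart in this way was not counted. For IAA29 the arrays ran from -2.30 to -1.85 in the CHLD line and from -1.24 to -0.91 in the CHLM line. For WES1 they ran from -1.27 to -0.99 and from -0.69 to -0.54. The difference between the effects was 1.09 (SE 0.218) for IAA29 and 0.53 (SE 0.127) for WES1 on the log2 scale. It is given without a test because unequal falls were part of the choice.

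Falls in both lines were not usually this unequal. At an adjusted p under 0.05, 12.4% of probe sets passed in the CHLD comparison and 9.75% in the CHLM comparison, and 513 (2.26%) were lower in both. Among these the median ratio of the CHLM to the CHLD log2 difference was 0.94, with quartiles at 0.76 and 1.1, and 58.5% fell more in the CHLD line. Only 18 of the 513 had a ratio below that of IAA29 and 26 below that of WES1. Passing the threshold in both lines keeps out probe sets with a small fall in either, and the genes were picked for unequal falls, so these places are a description. Without Col-0 estradiol replicate 1 the count was 375 and the median ratio 1.0, with IAA29 at 0.48 and WES1 at 0.56. The median ratio was 1.0 without any 1 of the estradiol arrays, and 0.86 or 0.87 without any 1 of the dexamethasone arrays. The count was 292 without CHLM replicate 1 and 323 without Col-0 dexamethasone replicate 2. Both genes remained among the probe sets lower in both lines without any 1 of the 12 arrays.

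**Figure D2:**
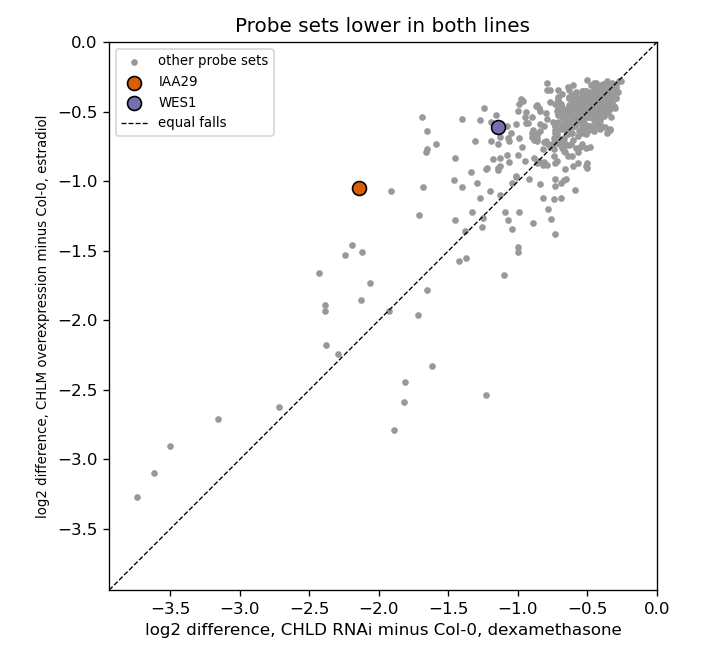
Log2 differences of the 513 probe sets lower in both lines, with the CHLD RNAi comparison on the horizontal and the CHLM overexpression comparison on the vertical axis. The dashed line marks equal falls. IAA29 (-2.14 and -1.05) and WES1 (-1.14 and -0.61) lie above it, on the side of a larger fall in the CHLD line.

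Within groups the pair were only weakly correlated, and 12 arrays are too few to tell a weak sharing of replicate differences from none. Over the 12 arrays their log2 signals were correlated at r = 0.939, a value set mainly by the distance between lines and Col-0. After each group mean was subtracted r was 0.22, and 6 of the 12 arrays deviated in the same direction for both genes. In Col-0 under dexamethasone replicate 3, IAA29 was 0.36 below its group mean and WES1 0.03 above. The arrays of the CHLD line deviated alike, at -0.16, -0.14 and 0.29 for IAA29 and -0.13, -0.01 and 0.15 for WES1.

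None of the other measured Aux/IAA repressor genes passed the threshold in either line. Over all probe sets 12.4% passed in the CHLD and 9.75% in the CHLM comparison, so none of 6 genes is near that share. Of 29 Aux/IAA loci 7 had a named probe set, and the 6 besides IAA29 had log2 differences from 0.00 to 0.12 in the CHLD line and from 0.00 to 0.09 in the CHLM line (limma adjusted p of 0.529 or more). Their median was 0.05 and 0.06, beside -0.007 and 0.02 over all probe sets. At an unadjusted p under 0.05 none of the 6 passed either. IAA18, a repressor of the same family, was at 8.42 ± 0.02 in Col-0 under dexamethasone and 8.53 ± 0.21 in the CHLD line (SD, n = 3 each). It was at 8.33 in the CHLM line and in Col-0 under estradiol.

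The remaining 5, IAA20, IAA30, IAA31, IAA33 and IAA34, had means under 5 over the 12 arrays. IAA20 and IAA30 encode repressors that lack the sequence through which auxin triggers destruction, and stood at 4.19 and 4.41 over all arrays. IAA31 ran from 2.95 to 3.33, near the lowest value of the data set, 2.39.

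Among the GH3 genes, 5 had a probe set with a name that the reference bears out, WES1 included. None of the other 4 passed the threshold in either line (smallest limma adjusted p 0.217 in the CHLD and 0.105 in the CHLM comparison). With 12.4% and 9.75% of all probe sets passing in these comparisons, none of 4 is near the share over all probe sets. A further 6 GH3 loci had a probe set but no matching name in the reference, and are not described here. GH3.3, another auxin-induced enzyme of the WES1 kind, was at 6.16, 6.03 and 6.39 in Col-0 under dexamethasone and 5.5, 5.53 and 6.32 in the CHLD line. The first 2 arrays of the line were below Col-0 and the third was among its values (log2 difference -0.41, SE 0.202, adjusted p = 0.217). Without CHLD RNAi replicate 3 the difference was -0.68 (SE 0.165, limma adjusted p = 0.0215), past the threshold.

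In Col-0 under estradiol GH3.3 was at 6.52, 6.69 and 6.52, and in the CHLM line at 6.44, 5.76 and 6.03. All arrays of the line were lower, the first by a small margin (log2 difference -0.50, SE 0.202, unadjusted p = 0.0266, limma adjusted p = 0.136). The value was -0.68 without CHLM replicate 1 (limma adjusted p = 0.0745), and no array left out took it past the threshold. For GH3.3 the CHLM minus the CHLD effect was -0.09 (SE 0.286, limma adjusted p = 0.972).

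GH3.17, which joins auxin to glutamate, was at -0.16 (SE 0.0857) in the CHLD line and -0.01 in the CHLM line. GH3.9 was at 0.07 in the CHLD line and 0.31 in the CHLM line (SE 0.115, limma adjusted p = 0.105). Its value in the CHLM line was 0.41 without Col-0 estradiol replicate 1, past the threshold (limma adjusted p = 0.0474). GH3.1 was at a mean of 3.57 over all arrays, and at 0.02 and 0.08 in the lines. The medians of the 4 were -0.07 and 0.03.

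Of 16 listed genes of auxin synthesis 3 had a probe set named here, as had 1 of 11 for conjugate release and breakdown, and none of these 4 passed the threshold in either line by the limma test. That too is near the share over all probe sets, 12.4% in the CHLD and 9.75% in the CHLM comparison. YUC2, YUC4 and YUC6 encode flavin monooxygenases that carry out the last step of auxin synthesis, and 0 of 3 passed in either line. The largest of their differences in the CHLD line were 0.28 (YUC4, SE 0.145, adjusted p = 0.25) and -0.25 (YUC2, SE 0.114, unadjusted p = 0.0482, adjusted p = 0.186). In the CHLM line they lay between -0.09 and 0.01. UGT84B1, which attaches glucose to auxin, was at -0.22 and 0.05. HAT2, an auxin-induced homeobox gene and the only named gene of 18 listed for shade and phytochrome-interacting factors, was at -0.07 (SE 0.127) and -0.21 (SE 0.127, adjusted p = 0.344).

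In all, 0 of 15 other listed auxin and shade genes rose and 0 fell in either line by the limma test, where 12.4% of all probe sets changed in the CHLD and 9.75% in the CHLM comparison. At an unadjusted p under 0.05 there was 1 in the CHLD and 2 in the CHLM comparison. None passed for the Col-0 groups or for the difference between the effects either, with 1 and 0 at an unadjusted p under 0.05, where 0.0484% and 1.13% of all probe sets passed. Of the 15 genes 8 had means under 5 over the 12 arrays. Left out of the 15 were 6 GH3 loci and 2 for auxin breakdown that had a probe set but no matching name in the reference. The counts therefore do not cover every GH3 gene on the array. Receptors, auxin response factors, auxin transporters, SAUR genes and salicylate genes had no probe set named here and were not analysed.

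**Figure D3:**
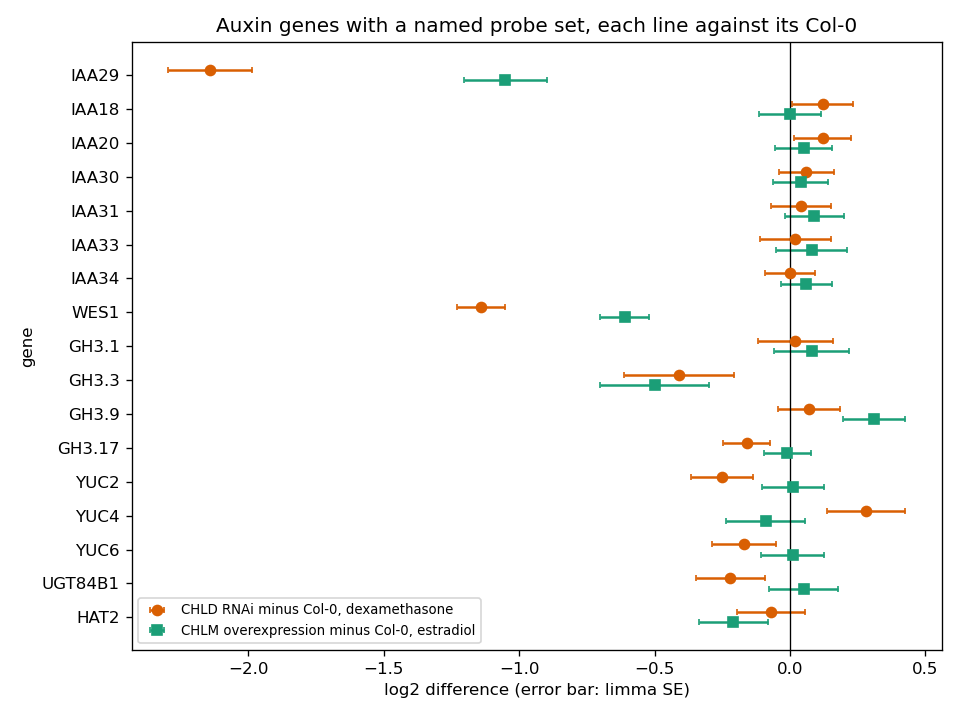
Log2 difference of each named auxin or shade gene in the CHLD RNAi line (circles) and the CHLM overexpression line (squares) against Col-0 with the same inducer. Error bars are the SE from limma. IAA29 and WES1 were chosen for their falls; the others lie between -0.50 and 0.31.

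The summed log2 signal of the 5 markers of other cell types was 31.12 to 31.61 in Col-0 under dexamethasone and 29.89 to 30.53 in the CHLD line, and 31.15 to 31.59 in Col-0 under estradiol and 30.73 to 31.37 in the CHLM line. In the CHLD line, where 12.4% of all probe sets passed the threshold, 1 of 5 fell, FMA of the stomatal lineage (-0.38, SE 0.109, limma adjusted p = 0.0361), and in the CHLM line, where 9.75% passed, 1 of 5, PYK10 (-0.44, SE 0.117, limma adjusted p = 0.0301). The others in the CHLD line were also lower, at -0.18 (EXPA7), -0.32 (PYK10), -0.17 (SPCH) and -0.16 (MUTE). In the CHLM line FMA (-0.22) and SPCH (-0.11) were lower. There MUTE (0.29, limma adjusted p = 0.124) and EXPA7 (0.11) were higher, so the sum joins opposite moves. The FMA call ended without replicate 2 or 3 of either dexamethasone group (limma adjusted p between 0.0896 and 0.141) and with the replicate number as a block (0.0512), and the PYK10 call without any 1 of the Col-0 estradiol arrays or CHLM replicate 2 or 3 (0.0613 to 0.0947). PYK10 passed in the CHLD comparison without CHLD RNAi replicate 2 (-0.44, limma adjusted p = 0.0396). The 7 green tissue markers summed to 77.47 to 77.56 and 76.94 to 77.81 in the dexamethasone groups, and to 76.90 to 77.29 and 76.67 to 77.61 in the estradiol groups. Of these 1 rose in each line, rbcL of the carbon-fixing enzyme Rubisco (0.51 and 0.50, SE 0.108), and 1 fell, psbA of photosystem II (-0.75 and -0.57, SE 0.108). The part of these shifts in the falls of IAA29 and WES1 was not tested.

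The probe sets most like each gene over the 12 arrays were found by Pearson correlation, a description that mostly follows the distances between groups. For IAA29 the closest of 22745 other probe sets was that of AT1G08230 (r = 0.973, and 0.65 after group means were subtracted). It was at 6.86 ± 0.19 and 5.17 ± 0.23 in the dexamethasone groups and 6.64 ± 0.07 and 6.10 ± 0.08 in the estradiol groups (SD, n = 3 each), Col-0 first. Next among named genes came AT5G16030 (r = 0.95), AT1G67910 (0.942), AT2G15320 (0.94) and WES1 itself, the fifth named gene and 12th of all probe sets. AT2G15320 had the highest correlation with IAA29 within groups of these 5, at 0.79, and AT1G67910 the lowest, at -0.09. The place of WES1 follows in part from the choice of both genes for unequal falls in the lines.

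For WES1 the closest named gene was TMT1, a sugar transporter of the vacuole membrane (r = 0.972, and 0.71 within groups). TMT1 was at 8.10 ± 0.04 in Col-0 and 7.40 ± 0.10 in the CHLD line under dexamethasone, and at 8.0 ± 0.16 in Col-0 and 7.52 ± 0.05 in the CHLM line under estradiol (SD, n = 3 each). AT3G05110 (0.97), AT5G16030 (0.959), AT5G62210 (0.954) and AT1G09460 (0.948) followed. AT5G16030 was thus among the 5 closest named genes of both, although its own differences were small, at -0.50 and -0.27. IAA29 ranked 28 by likeness to WES1, a place that also follows in part from the choice of the pair. At r of at least 0.9 there were 56 other probe sets for IAA29 and 107 for WES1.

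**Figure D4:**
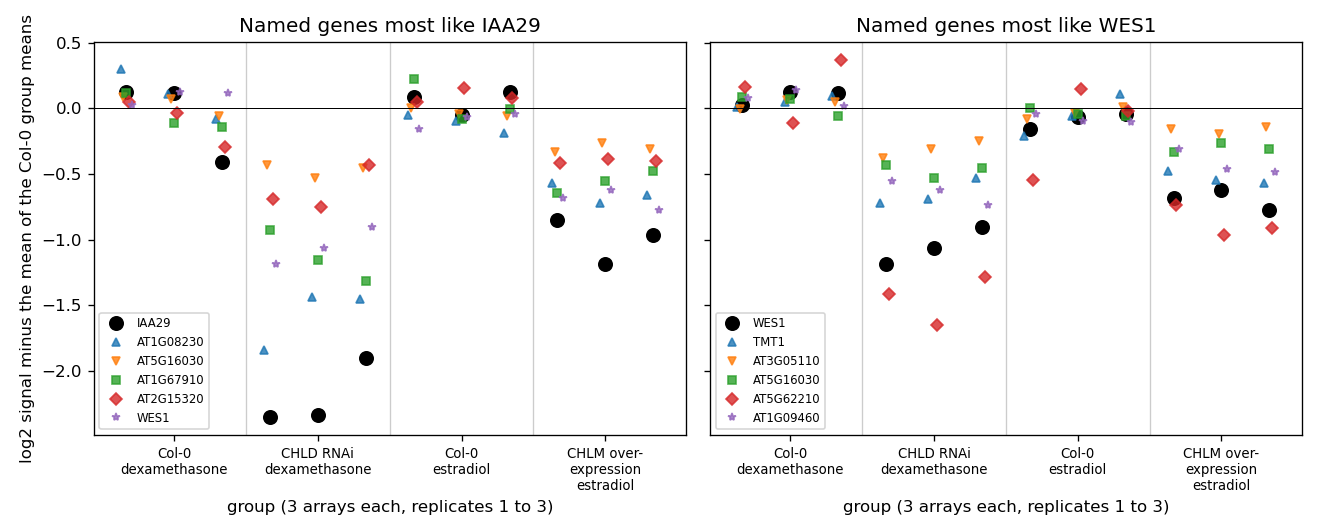
Log2 signal minus the mean of the Col-0 group means, for IAA29 (left) and WES1 (right) as black circles and for the 5 named genes most correlated with each, on all 12 arrays. In each gene both lines lie below both Col-0 groups in mean, with the CHLD line lowest, and the falls differ in size, from -0.35 (AT3G05110) to -2.14 (IAA29) in the CHLD line.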

How the data were processed

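The deposited values were log2 signals, 1 column per array, which the submitters' processing notes credit to Affymetrix Expression Console, run by the authors. Version, summary method and normalization are not given in the sources used here, and base 2 was inferred from the range of 2.39 to 14.49. Values were used as deposited, and 0 columns were left out. Of 22809 probe sets the 63 controls were left out. The annotation gave 1 gene to 13513 of the rest, several to 503 and none to 8730, and 13436 were found in RefSeq (TAIR10.1), whose symbols are used. List members whose locus the reference does not give the listed name were dropped (6 GH3 loci and 2 for auxin breakdown with a probe set).

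All 12 arrays entered 1 four-group model in limma 3.58.1 (R 4.3.3; eBayes, 8 residual and 6.05 prior degrees of freedom), with two-sided p-values adjusted by Benjamini-Hochberg over 22746 probe sets and a threshold of 0.05. The number of arrays limits the precision, and an exact permutation test of 3 against 3 cannot give p below 0.1. Replicates are biological, per the labels. Named are the pair and all Aux/IAA and GH3 genes measured under a name that the reference bears out. From each list up to 4 members past the threshold are named, or the one with the smallest p. The 5 named genes most correlated with each of the pair were added, as were the remaining genes of the short lists. Genes and lists were chosen with earlier results of these data known.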

Additional observations from a re-analysis of the deposited data

How the results depend on the processing

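Quantile normalization and leaving out single arrays moved the falls of IAA29 and WES1 in each line by less than the SD between replicates. The same held for the difference between the effects. Leaving out 1 of 3 arrays shifts a group mean by only part of that array's deviation. A move smaller than the SD was therefore largely fixed in advance. In this balanced design the other alternatives cannot move a difference of group means, and only its SE could change. These were the replicate number as a block, trend and robust moderation, and the compared groups alone (not possible for the difference between effects). A fit to only probe sets at or above the median signal was another (WES1 only, as IAA29 is below it). Without single arrays IAA29 ran from -2.32 to -2.05 in the CHLD and from -1.13 to -0.96 in the CHLM comparison, and WES1 from -1.21 to -1.07 and from -0.64 to -0.57; the differences between effects ran from 0.99 to 1.26 and from 0.47 to 0.61, and the Col-0 differences from -0.20 to 0.07 and from 0.14 to 0.21. Of 957 values of the other 15 auxin genes under the alternatives, 2 were past the threshold, GH3.3 and GH3.9 as given above. Counts of calls moved more. The CHLD count (2822) ran from 1563 to 3626 without single arrays, falling to 1666 and 1563 without Col-0 dexamethasone replicate 1 or 2 and 1801 without CHLD RNAi replicate 2. The CHLM count (2217) ran from 1156 (without CHLM replicate 1) to 2090 and was 855 in a fit to its own groups. The Col-0 count (11) ran from 0 (without dexamethasone replicate 2) to 728, was 4 without dexamethasone replicate 1, 5 without dexamethasone replicate 3 or estradiol replicate 2 or 3, 28 without CHLD RNAi replicate 2 and 21 without CHLM replicate 3, and was 37 above the median signal, 17 in a fit to its own groups and 36 with trend and robust moderation. The count for the difference between effects (256) ran from 187 to 492, the latter without Col-0 estradiol replicate 1. The count lower in both lines (513), an alternative chosen after seeing the data, ran from 292 to 448. The cause of these moves was not tested.

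Replicate numbers did not pair the arrays: deviations of same-numbered arrays in each line and its Col-0 group were correlated at -0.105 to 0.075. Over all pairs of groups the range was -0.13 to 0.243 for same-numbered arrays and -0.24 to 0.223 for differently numbered ones. With the replicate block the counts were 2729, 2038, 25 and 286 for the CHLD, CHLM, Col-0 and difference comparisons, and IAA29 and WES1 differed as without it, with SEs of 0.161 and 0.0912. How far the low signals of 8 of the other auxin genes, with means under 5, limit what they can show was not tested.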
